A study of Mus musculus with 8 samples.

Results

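The simple epithelial keratins Krt7, Krt8, Krt18 and Krt19 were followed in mouse embryoid bodies with and without doxycycline-induced Oct6. All 4 were taken by gene symbol from a table of 22558 genes, and each has 1 row there. Pou3f1 encodes Oct6, a POU factor found in epiblast and in neural tissue. The induced libraries are labelled as stem cells with Oct6 overexpression induced by doxycycline, taken as embryoid bodies of day 2, day 4 or day 6. The control libraries are labelled as control and come from the same days. The growth protocol names the stem cell lines R1 and R1/E, kept on feeders and then differentiated without serum. The library titles carry the prefix fbs, which the labels do not explain. Titles name doxycycline for the induced libraries alone, the treatment protocol can be read as giving it to both arms for 6 days, and neither the promoter of the transgene nor the line or clone of each arm is stated. Effects of Oct6, doxycycline and line thus cannot be told apart. At day 4, 1 Oct6 ChIP library and 1 input library of Oct6-overexpressing cells gave a list of 7979 peaks.

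Each arm and day has 1 RNA library, so no comparison within a day has a replicate check. The values are FPKM, fragments scaled to transcript length and library size, so levels of different genes can be compared. Depth was not stated, and the smallest steps in the table put it at about 0.687 to 1.49 times that of control day 2. Intervals below use fragment numbers estimated from that depth and the coding length, cover 95% counting error only, and leave out the spread between cultures. Pou3f1 itself had 312 FPKM in induced day 2, 222 in induced day 4 and 86.8 in induced day 6, against 64.3, 10.1 and 4.76 FPKM in the controls of those days. Pou5f1, the gene of the stem cell factor Oct4, was at 436, 445 and 138 FPKM over the induced libraries in order of day, against 890.0, 495 and 136 FPKM over the control ones, so neither arm lost it. The samples are whole embryoid bodies, and fewer cells of a type cannot be told apart from less RNA per cell.

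Keratins are the intermediate filament proteins of epithelial cells. A filament needs a type II keratin, here Krt7 or Krt8, and a type I keratin, here Krt18 or Krt19, and an unpaired partner is degraded. Krt8 and Krt18 are the founding pair of simple, single-layered epithelia and the first keratins made in the mouse embryo, in trophectoderm and later in visceral endoderm. Krt19 and Krt7 are added in many ducts, glands and extraembryonic epithelia. Translated from the annotated coding sequences, Krt7 and Krt8 shared 62.0% of aligned residues and Krt18 and Krt19 shared 49.4%. Between the types the shared residues made up 31.7% to 35.0%.

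In mm9, Krt8 lies on chromosome 15 from 101827142 to 101834773 on the minus strand, and Krt18 from 101858647 to 101862457 on the plus strand, with start sites 23.9 kb apart. Krt18 is thus the type I gene that sits beside the type II genes. Krt7 lies on the same chromosome from 101241474 to 101260744 on the plus strand, 593 kb from Krt8 by start sites. Krt19 lies on chromosome 11 from 100002124 to 100009979 on the minus strand, among the other type I genes. No other annotated gene overlapped any of the 4. A copy of the Krt8 coding sequence with 97.7% identity lies on chromosome 7 from 24142144 to 24143601, inside the gene Nlrp4e, and one of Krt18 with 90.4% identity on chromosome 13 from 118246641 to 118247882. The sources used here do not say how reads shared with such copies were counted, which leaves the levels of Krt8 and Krt18 uncertain to that extent. No copy of Krt7 or Krt19 with at least 90% identity over at least 50% of the coding sequence was found.

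The 250 bases before the RefSeq start are shown because the keratins followed each other across the libraries. Shown are Krt7, Krt8 and Krt18, the 3 members with a promoter entry (GRCm38.p6). Krt19 is left out because it had no entry. Capitals mark the letters CACCTG, an E-box of the kind bound by Snail and Zeb repressors of epithelial genes. Krt8 is chr15:102004343-102004592 on the minus strand, Krt18 is chr15:102027966-102028215 on the plus strand, and Krt7 is chr15:101412153-101412402 on the plus strand.
Krt8: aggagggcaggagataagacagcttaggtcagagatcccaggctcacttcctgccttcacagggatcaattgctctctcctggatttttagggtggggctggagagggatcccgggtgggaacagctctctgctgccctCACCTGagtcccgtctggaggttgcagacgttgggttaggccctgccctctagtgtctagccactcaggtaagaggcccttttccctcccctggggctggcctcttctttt
Krt18: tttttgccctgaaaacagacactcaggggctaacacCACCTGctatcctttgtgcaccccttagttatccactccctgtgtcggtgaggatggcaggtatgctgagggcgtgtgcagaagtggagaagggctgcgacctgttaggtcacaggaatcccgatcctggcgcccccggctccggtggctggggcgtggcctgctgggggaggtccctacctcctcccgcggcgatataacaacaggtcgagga
Krt7: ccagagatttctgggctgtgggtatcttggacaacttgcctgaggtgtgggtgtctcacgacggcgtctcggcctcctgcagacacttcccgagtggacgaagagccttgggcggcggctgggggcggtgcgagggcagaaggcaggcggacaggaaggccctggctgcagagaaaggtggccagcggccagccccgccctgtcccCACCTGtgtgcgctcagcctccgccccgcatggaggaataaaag
These letters, searched on both strands, began at position -111 from the start in Krt8, -214 in Krt18 and -44 in Krt7. They occur in 17.2% of 32851 promoter windows of that length. The motifs were chosen after these promoters had been read, so the matches in them are no test of enrichment. The POU octamer ATGCAAAT, the sequence preferred by Oct factors, was in 0 of the 3 windows on either strand and in 1.60% of all windows. The AP-1 letters TGANTCA were in 0 of the 3 and in 6.75% of all. The GC box GGGCGG, bound by Sp factors, was in the Krt7 window, in neither of the others, and in 32.7% of all. These are matches of letters and show no binding.

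**Figure D1:**
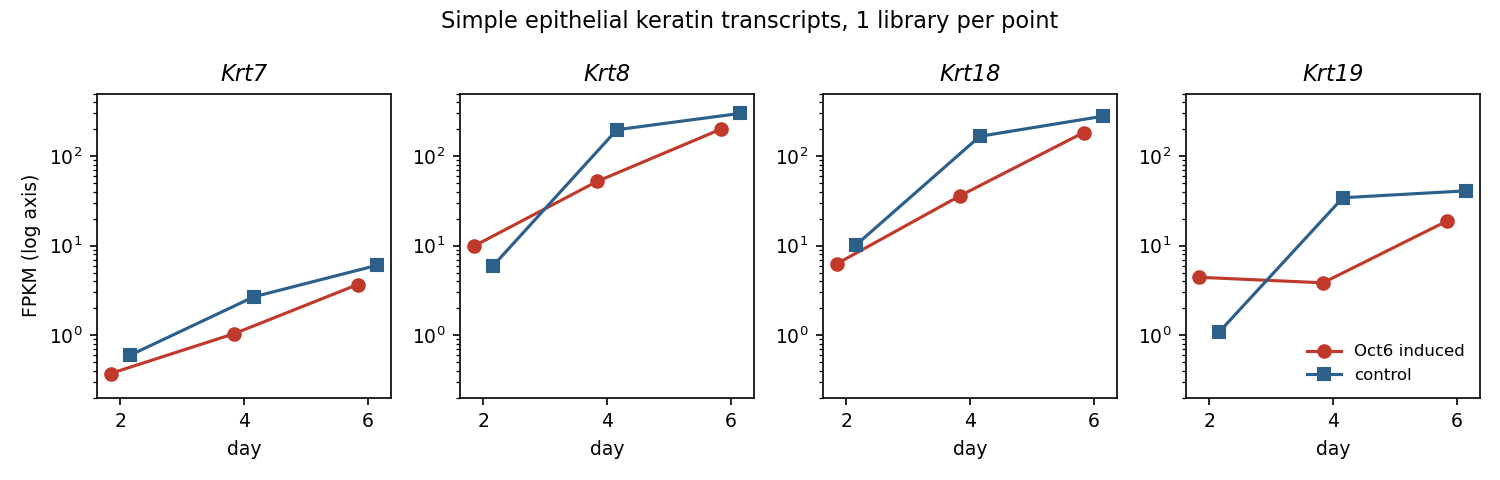
FPKM of Krt7, Krt8, Krt18 and Krt19 (log axis) against day, with 1 library per point, circles for Oct6-induced and squares for control cells. At day 4 the induced values of 1.04, 52.2, 36.1 and 3.85 FPKM lie under the control values of 2.69, 197, 166 and 34.3 FPKM.

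The first question was what Oct6 induction changed on each day. Day 4 held the widest gaps, and all 4 keratins were lower in induced cells there. Krt8, the type II partner of Krt18, had 52.2 FPKM in induced cells against 197 FPKM in control cells, a ratio of 0.265 (counting interval 0.252 to 0.277). Krt18, its type I partner, had 36.1 FPKM in induced cells against 166 FPKM in control cells, a ratio of 0.217 (0.204 to 0.230). Krt19, a type I keratin with a very short tail, had 3.85 FPKM in induced cells against 34.3 FPKM in control cells, a ratio of 0.112 (0.0925 to 0.135). The order of the gaps thus ran from Krt19 over Krt18 to Krt8. Krt7, a type II keratin of ducts, had 1.04 FPKM in induced cells against 2.69 FPKM in control cells, a ratio of 0.387 (0.266 to 0.557).

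On the log2(FPKM + 1) scale the day 4 differences, induced minus control, were -1.90 for Krt8, -2.17 for Krt18, -2.86 for Krt19 and -0.85 for Krt7. Here and below, a share of all genes is out of those with 1 FPKM or more in either library compared, 12678 at day 4. A difference of at least 1 with 1 FPKM or more in either library counted as a call. By that rule 3 of 4 keratins were at least 2-fold lower in induced cells at day 4, where 2.11% of all genes were, and 0 were higher, where 6.09% of all genes were. Krt7 missed it, although its difference was -1.29 with a pseudocount of 0.1. The median of the 4 differences was -2.04, beside 0.10 over all 13661 expressed genes. Only 0.102% of expressed genes had a more negative difference than Krt19, 0.198% than Krt18 and 0.322% than Krt8.

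At day 2 the members went different ways. Krt19 was higher in induced cells, with 4.43 FPKM against 1.09 FPKM in control cells, a ratio of 4.07 (counting interval 2.86 to 5.75) and a difference of 1.38. It was the 1 of 4 keratins at least 2-fold higher, where 9.72% of all genes were. Krt8 had 9.84 FPKM in induced cells against 6.00 FPKM in control cells, a ratio of 1.64 (1.41 to 1.91). Krt18 had 6.25 FPKM in induced cells against 10.2 FPKM in control cells, a ratio of 0.611 (0.517 to 0.721). The obligate partners Krt8 and Krt18 therefore stood on opposite sides of equality, by less than 2-fold each. Krt7 was at 0.374 FPKM in induced cells and 0.600 FPKM in control cells, an estimated 13.8 and 27.8 fragments, and its ratio of 0.622 had an interval of 0.306 to 1.23 that includes equality. None of the 4 was called at least 2-fold lower at day 2, where 1.83% of all genes were. Krt7 was below 1 FPKM in both libraries of that day and could not be called in either direction. The median of the 4 differences was 0.21, beside 0.16 over all expressed genes. With median ratio scaling that overall median was 0.04, and with quantile normalisation it was -0.05. Each keratin kept its sign at day 2 under both, but Krt19 missed the 2-fold call with quantile normalisation (0.99). Of all 2-fold calls at day 2, 84.2% were higher in induced cells as deposited and 59.9% with quantile normalisation, and at day 4 these shares were 74.2% and 57.5%. At day 6 they were 61.6% and 49.8%.

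At day 6 the differences were smaller than at day 4. Krt8 had 199 FPKM in induced cells against 300.1 FPKM in control cells, a ratio of 0.664 (0.645 to 0.685). Krt18 had 183 FPKM in induced cells against 279 FPKM in control cells, a ratio of 0.656 (0.634 to 0.678). Krt7, at 3.68 FPKM in induced cells against 6.06 FPKM in control cells, had a ratio of 0.608 (0.481 to 0.763). Those 3 ratios were close to each other. Krt19 stood lower, with 18.8 FPKM in induced cells against 41.0 FPKM in control cells and a ratio of 0.458 (0.413 to 0.507). Its difference of -1.09 made it the 1 of 4 at least 2-fold lower at day 6, where 2.10% of all genes were, and 0 of 4 were higher, where 3.37% were. The other 3 differences were between -0.61 and -0.59, and the median of the 4 was -0.60, beside 0.06 over all expressed genes.

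**Figure D2:**
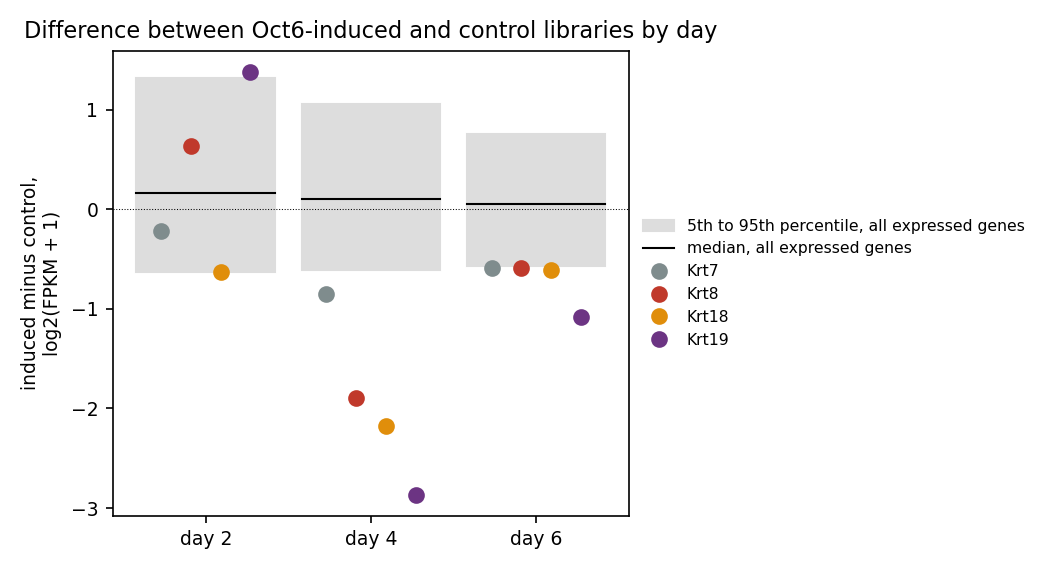
Induced minus control difference of log2(FPKM + 1) for each keratin at days 2, 4 and 6, with the 5th to 95th percentile range (grey) and the median (line) of 13661 expressed genes. The keratins spread from -0.63 to 1.38 at day 2, and all lie below the grey range at day 4, from -2.86 to -0.85, and at day 6, from -1.09 to -0.59.

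A difference common to the 3 days was tested with limma, with day as a block, over all expressed genes. The fitted differences were -1.14 ± 0.33 for Krt18, -0.56 ± 0.20 for Krt7, -0.62 ± 0.46 for Krt8 and -0.86 ± 0.78 for Krt19 (SE, 3 days). None of the 4 passed limma's test after Benjamini-Hochberg adjustment, with adjusted p-values of 0.177 for Krt18, 0.213 for Krt7, 0.473 for Krt8 and 0.546 for Krt19. In all, 0.00732% of expressed genes passed as lower. At an unadjusted p under 0.05, limma took 2 of the 4 as lower, Krt18 at 0.0185 and Krt7 at 0.0362, beside 4.72% of expressed genes. The direction was shared by all days in Krt7 and Krt18, which were lower in induced cells on 3 of 3 days, while Krt8 and Krt19 were lower on 2 of 3. With day 4 left out, the fitted difference of Krt8 was 0.022 and that of Krt19 was 0.15, on the other side of 0. What limma tests here is the spread between days, not between repeated cultures.

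The second question was how the keratins developed over time within each arm. These comparisons use the same 6 libraries as those above, and neighbouring steps share the day 4 library of their arm. In induced cells, 2 of 4 keratins were called at least 2-fold higher on the log2(FPKM + 1) scale at day 4 than at day 2, where 2.73% of all genes were, and 0 were lower, where 2.36% were. Krt8 was at 9.84 FPKM on day 2 and 52.2 FPKM on day 4, a ratio of 5.30, and Krt18 was at 6.25 and 36.1 FPKM, a ratio of 5.77. Krt19 did not share this step, with 4.43 FPKM at day 2 and 3.85 FPKM at day 4. Krt7 was at 0.374 and 1.04 FPKM, a ratio of 2.78, but its difference on the log2(FPKM + 1) scale was 0.57, and it was called with a pseudocount of 0.1 (1.27). From day 4 to day 6, 4 of 4 keratins were at least 2-fold higher in induced cells, where 2.98% of all genes were. The later level was 3.54 times the earlier one for Krt7, 3.82 times for Krt8, 4.88 times for Krt19 and 5.08 times for Krt18. Across the whole course, day 6 against day 2, 4 of 4 were at least 2-fold higher in induced cells, where 7.22% of all genes were, and 0 were lower, where 5.35% were.

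In control cells the larger step of each keratin was the one from day 2 to day 4. In induced cells Krt8 and Krt18 had log2 changes of 2.29 and 2.35 in that step. From day 4 to day 6 theirs were 1.91 and 2.31. In control cells the pair had 4.82 and 3.90 in the first step and 0.60 and 0.74 in the second. For this pair the arms thus differed in both steps, with the smaller first and the larger second change in induced cells. The control values were as follows. From day 2 to day 4, 4 of 4 keratins were at least 2-fold higher, where 9.63% of all genes were, and 0 were lower, where 4.65% were. Krt8 had 6.00 FPKM at day 2 and 197 FPKM at day 4, a ratio of 32.9. Krt19 had 1.09 and 34.3 FPKM, a ratio of 31.5, and Krt18 had 10.2 and 166 FPKM, a ratio of 16.3. Krt7 followed on a smaller scale, with 0.600 and 2.69 FPKM and a ratio of 4.48. From day 4 to day 6, 0 of 4 were called at least 2-fold higher on the log2(FPKM + 1) scale in control cells, where 6.15% of all genes were, 0 were lower, where 2.97% were, and the log2 differences lay between 0.25 for Krt19 and 0.94 for Krt7. By FPKM itself Krt7 at day 6 was 2.25 times its day 4 level, and it was called with a pseudocount of 0.1 (1.14). Between day 2 and day 6, 4 of 4 were higher in control cells, where 17.2% of all genes were, and 0 were lower, where 6.73% were. The median change of the 4 keratins from day 2 to day 4 was 1.43 in induced and 3.99 in control cells, beside 0.05 and 0.10 over all expressed genes. From day 4 to day 6 it was 1.97 in induced and 0.67 in control cells, beside 0.03 and 0.08.

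Set side by side across days, Krt8 at induced day 6 (199 FPKM) was near control day 4 (197 FPKM), and Krt18 at induced day 6 (183 FPKM) was near control day 4 (166 FPKM). Krt7 was at 3.68 and 2.69 FPKM in the same libraries. Krt19 again stood lower, with 18.8 FPKM at induced day 6 against 34.3 FPKM at control day 4. These pairs differ in day as well as in arm and carry no test.

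Across the 6 libraries each of Krt7, Krt8 and Krt18 was highest in control day 6. In descending order Krt8 ran 300.1 FPKM in control day 6, 199 in induced day 6, 197 in control day 4, 52.2 in induced day 4, 9.84 in induced day 2 and 6.00 in control day 2. Krt18 and Krt7 had the same order down to induced day 4, with control day 2 above induced day 2 at the bottom. Krt19 ran 41.0 FPKM in control day 6, 34.3 in control day 4, 18.8 in induced day 6, 4.43 in induced day 2, 3.85 in induced day 4 and 1.09 in control day 2. With 1 library each, neighbours in these orders cannot be told apart by a spread. Pearson's r of log2(FPKM + 1) over the 6 libraries was 0.98 between Krt8 and Krt18 and 0.90 between Krt18 and Krt19, values that share arm and day and are given as a description. At its highest, Krt8 ranked 190 among the genes of control day 6 and Krt18 ranked 212. In induced day 4 they ranked 1515 and 2238, against 311 and 399 in control day 4.

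The balance of partners also differed. Krt8 over Krt18 was 1.57, 1.45 and 1.09 in the induced libraries by day, against 0.586, 1.18 and 1.07 in the control libraries. The arms were thus furthest apart in this ratio at day 2 and close at day 6. Krt19 over Krt18 was 0.709 in induced cells and 0.106 in control cells at day 2. By day 6 it was 0.102 in induced cells and 0.147 in control cells. All type II transcript, Krt7 plus Krt8, over all type I transcript, Krt18 plus Krt19, was 0.956, 1.33 and 1.01 in induced cells against 0.582, 0.995 and 0.956 in control cells. In induced day 2, where Krt8 and Krt18 were unequal, the sum over both classes was thus near balance, with 10.2 FPKM of type II and 10.7 FPKM of type I transcript. Krt8 and Krt18 made up 77.0% of the summed FPKM of the 4 in induced day 2 and between 90.6% and 94.8% in the other 5 libraries. Krt19 held 21.2% of the sum in induced day 2.

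**Figure D3:**
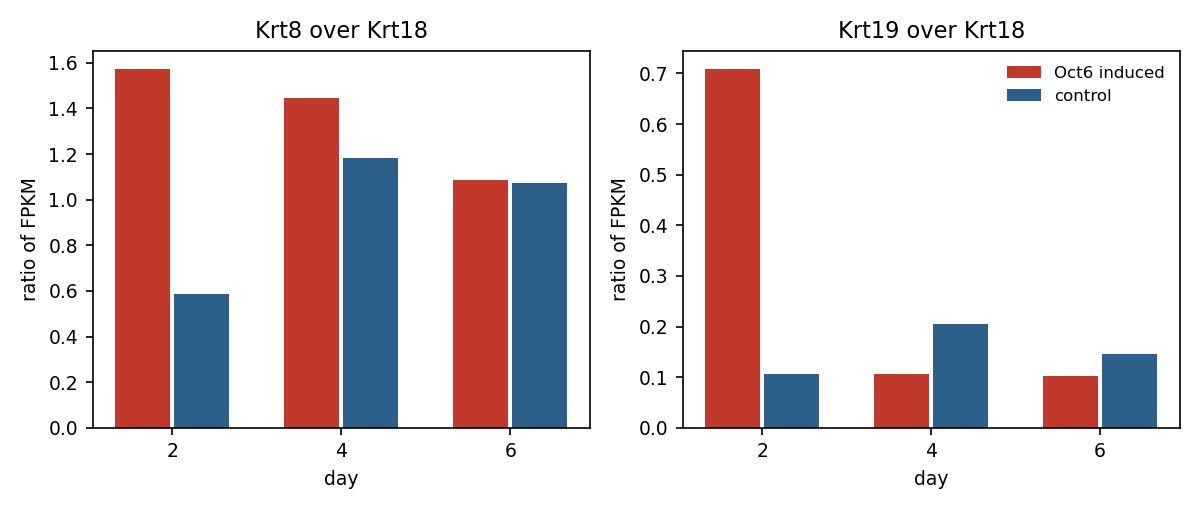
Ratio of the FPKM of Krt8 to Krt18 (left) and of Krt19 to Krt18 (right) by day, 1 library per bar, induced left of control. Induced day 2 stands highest in both panels, at 1.57 and 0.709.

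Other keratins were weakly expressed. Of 47 further keratin genes in the table, 3 reached 1 FPKM in any library and 32 stayed below 0.1 FPKM in all. Krt10, a type I keratin of suprabasal skin, had 1.66, 1.61 and 1.84 FPKM in the induced libraries by day, against 1.08, 1.16 and 1.74 FPKM in control cells. Krt17, a type I keratin of skin appendages and wounds, had 0.540, 0.269 and 0.126 FPKM in induced cells against 1.46, 0.342 and 0.207 FPKM in control cells. Krt42, a further type I keratin, had 0.786, 0.341 and 0.301 FPKM in induced cells against 1.88, 0.161 and 0.116 FPKM in control cells. On the log2(FPKM + 1) scale none of the 3 reached a difference of 1 on any day, where Krt17 stood at -0.68 and Krt42 at -0.69 on day 2. By FPKM itself both were over 2-fold lower in induced cells at day 2, and both were called with a pseudocount of 0.1 (-1.29 for Krt17, -1.16 for Krt42) and with quantile normalisation (-1.14 and -1.18). Krt10 at day 2 changed sign with quantile normalisation (-0.06). Krt17 and Krt42 were most abundant at day 2. Krt17 and Krt42 are close paralogues whose reads may be shared. Summed over all 47, the level was between 3.81 and 6.39 FPKM in every library, while the 4 simple keratins summed to 20.9, 93.2 and 405 FPKM in induced cells and 17.9, 400.4 and 627 FPKM in control cells.

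Other epithelial genes were read from lists of genes. List counts here and below stand beside the shares of all genes called. At day 2, 9.72% were higher and 1.83% lower in induced cells. At day 4 these shares were 6.09% and 2.11%, and at day 6 they were 3.37% and 2.10%. Of 26 epithelial junction and barrier genes, 4 were at least 2-fold lower in induced cells at day 4, 0 were higher, and the median was -0.67. With either scaling the count of lower genes was 10. The 4 were Cdh1, Cldn4, Cldn7 and Crb3, of which Cdh1, Cldn7 and Crb3 were named after their values were seen. Cldn4, a tight junction claudin, had 21.2 FPKM in induced cells against 55.0 FPKM in control cells at day 4. Cdh1, the epithelial cadherin, had 53.7 FPKM in induced cells against 132 FPKM in control cells. At day 2 in this list, 3 genes were higher and 2 lower in induced cells. With median ratio scaling the counts were 3 higher and 4 lower, and with quantile normalisation 1 higher and 4 lower. Dsc2 missed the call with quantile normalisation (0.90). Perp, a desmosome-associated membrane protein, had 38.3 FPKM in induced cells against 13.0 FPKM in control cells, and Dsc2, a desmosomal cadherin, had 3.84 FPKM in induced cells against 0.979 FPKM in control cells. Cdh3, the placental cadherin, had 2.06 FPKM in induced cells against 6.67 FPKM in control cells. At day 6, 0 genes of the list passed in either direction and the median was -0.37. The day 2 median of 0.14 was -0.04 with quantile normalisation.

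Of 8 expressed keratin-binding proteins, 1 was at least 2-fold lower at day 4 and 0 were higher on any day. It was Dsp, the desmoplakin that ties keratin filaments to desmosomes, with 5.07 FPKM in induced cells against 16.4 FPKM in control cells. Ppl, a plakin, differed by -0.59 at day 4, Pkp2, a desmosomal plaque protein, by -0.51 at day 6, and Fbf1, a keratin-binding junction protein, by 0.41 at day 4. Over the 8 the median was 0.17 on day 2, -0.07 on day 4 and -0.15 on day 6, and the first of these was -0.14 with quantile normalisation.

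Of 12 expressed genes of other intermediate filaments, 4 were at least 2-fold higher in induced cells on day 2, 1 on day 4 and 0 on day 6. None were lower on any day. With quantile normalisation 1 was higher and 1 lower at day 2. Nefl, the light neurofilament subunit, had 25.7 FPKM in induced cells against 8.26 FPKM in control cells at day 2. Prph, peripherin, had 6.85 FPKM in induced and 2.11 FPKM in control cells, and Lmna, a nuclear lamin, 16.6 FPKM in induced and 6.56 FPKM in control cells. Des, the muscle filament desmin, differed by 1.16 on the log2 scale at that day. At day 4 the 1 gene was Vim, the mesenchymal filament vimentin, named after its values were seen, with 89.0 FPKM in induced cells against 40.1 FPKM in control cells. The median of the 12 at that day was -0.20. Vim also differed by 0.71 at day 2, when Krt8 and Krt19 were higher in induced cells too.

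Of 15 expressed epithelial transcription factors, 2 were at least 2-fold higher and 2 lower in induced cells at day 2, 1 higher and 1 lower at day 4, and 1 higher and 0 lower at day 6. Grhl2, an activator of epithelial genes, had 7.93 FPKM in induced cells against 22.0 FPKM in control cells at day 2. Klf4 had 6.71 FPKM in induced cells against 1.12 FPKM in control cells at day 4. Tcfap2a, an AP-2 factor of ectoderm, had 4.43 FPKM in induced cells against 1.04 FPKM in control cells at day 6. The list medians were 0.16, 0.07 and -0.03, beside 0.16, 0.10 and 0.06 over all expressed genes, and with quantile normalisation they were -0.25, -0.20 and -0.18.

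Markers of tissues that carry simple keratins were set beside them. Visceral endoderm is the extraembryonic epithelium around the epiblast. Of its 22 markers, 5 were at least 2-fold lower and 1 higher in induced cells at day 2, 15 lower and 0 higher at day 4, and 12 lower and 0 higher at day 6. The summed FPKM of the 22 was 22.5, 50.3 and 93.0 in induced cells against 50.9, 248 and 344 in control cells. Afp, the fetal albumin, had 0.0347 FPKM in induced cells against 3.64 FPKM in control cells at day 4, and 0.115 against 53.3 FPKM at day 6. Ttr, which carries thyroid hormone, had 4.25 FPKM in induced cells against 48.0 FPKM in control cells at day 6, and its log2 difference at day 4 was -4.53. Apob, the core apolipoprotein, had 0.148 and 0.267 FPKM in induced cells on days 4 and 6, against 13.0 and 17.6 FPKM in control cells. Dab2, an endocytic adaptor, had 3.69 and 5.82 FPKM in induced cells on those days, against 45.7 and 38.1 FPKM in control cells.

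At day 4 the 4 keratins summed to 93.2 FPKM in induced cells against 400.4 FPKM in control cells, and both keratins and markers were lower. In induced day 6, Krt8 and Krt18 stood at 199 and 183 FPKM, 0.664 and 0.656 of control, while the 22 markers summed to 0.271 of control and Afp and Apob were below 1 FPKM. In all 3 induced libraries 6 of the 22 markers stayed below 1 FPKM, and Apoa4 was listed at 0 at days 2 and 4. The part of visceral endoderm in the keratin differences was not tested.

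Trophoblast markers, 8 of 13 expressed, had 2 lower genes at day 4 and medians of 0.14, -0.29 and 0.07 (-0.23, -0.54 and -0.05 with quantile normalisation). Hand1, a factor of trophoblast giant cells and also of lateral mesoderm, had 0.608 FPKM in induced cells against 7.65 FPKM in control cells at day 4, and 42.4 FPKM in induced cells against 57.8 FPKM in control cells at day 6. The gene 1600029D21Rik had 0.762 FPKM in induced cells against 2.84 FPKM in control cells at day 4. Gata3 had 1.83 FPKM in induced cells against 0.120 FPKM in control cells at day 2, and was the 1 gene of the list at least 2-fold higher that day. Plac1, a placental gene, had 3.58 FPKM in induced cells against 7.23 FPKM in control cells at day 6. The trophoblast markers Tpbpa and Prl3d1 were each listed at 0 in 5 of 6 libraries. Summed over the list of 13, FPKM was 18.2, 74.0 and 106 in induced cells against 14.3, 108 and 110.4 in control cells. Most of the day 4 sum was the single gene Eomes, with 54.5 FPKM in induced cells and 83.1 FPKM in control cells. It was named after its values were seen.

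Surface ectoderm markers, 7 of 12 expressed, included Dlx5, a homeobox factor, at 3.91, 3.02 and 2.07 FPKM in induced cells against 0.188, 0.0148 and 0.329 FPKM in control cells. Tcfap2b, an AP-2 factor, had 2.66 FPKM in induced cells against 0.0824 FPKM in control cells at day 6. Msx2, a homeobox gene that responds to BMP, had 2.49 and 26.8 FPKM in induced cells on days 4 and 6, against 7.21 and 13.4 FPKM in control cells. In this list, 1 gene was at least 2-fold higher at day 2, 1 higher and 1 lower at day 4, and 3 higher and 0 lower at day 6. The keratins of stratified epidermis in the list, Krt5, Krt14 and Krt15, stayed below 1 FPKM in every library. The summed FPKM of the 12 was 23.7, 26.8 and 50.9 in induced cells against 13.2, 43.4 and 30.3 in control cells. Most of the day 4 sum was the single gene Sfn, with 15.5 FPKM in induced cells and 31.3 FPKM in control cells. Sfn was named after its values were seen.

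In the mesothelium list, 2 of 6 markers were expressed. Wt1, a factor of mesothelium and gonad, had 3.02 FPKM in induced cells against 17.2 FPKM in control cells at day 2, and Lrrn4 was within 2-fold on every day. Heart muscle was listed as a further tissue. Of its 8 markers, 8 were at least 2-fold lower in induced cells at day 6, and their summed FPKM was 20.1 in induced cells against 261 in control cells. Myl7, an atrial light chain, had 2.55 FPKM in induced cells against 57.5 FPKM in control cells at day 6. Actc1, Tnnt2 and Myl4, further sarcomere genes, had 1.41, 2.09 and 3.03 FPKM in induced cells against 41.6, 43.8 and 43.6 FPKM in control cells. At day 4, when the keratin gap was widest, the cardiac sum was 4.09 FPKM in induced cells against 15.0 FPKM in control cells. The parts of trophoblast, surface ectoderm, mesothelium and heart muscle in the keratin differences were not tested.

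Of 5 stem cell markers, 0 were at least 2-fold higher and 2 lower in induced cells at day 2, 2 higher and 0 lower at day 4, and 1 higher and 0 lower at day 6. The lower ones at day 2 were Pou5f1 (-1.03) and Sox2, with 66.7 FPKM in induced cells against 135 FPKM in control cells (-1.01, and -0.88 with quantile normalisation). Pou5f1 differed by -0.15 at day 4. Zfp42, a gene of naive stem cells, had 88.1 FPKM in induced cells against 23.8 FPKM in control cells at day 4, and Dppa3 differed by 1.94 on the log2 scale. Sox2 had 65.9 FPKM in induced cells against 35.5 FPKM in control cells at that day. Tubb3, Dcx, Elavl3 and Stmn2 of neurons had 56.2, 8.68, 4.17 and 48.5 FPKM in induced cells against 10.3, 0.132, 0.329 and 19.1 FPKM in control cells at day 6, each at least 2-fold higher.

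**Figure D4:**
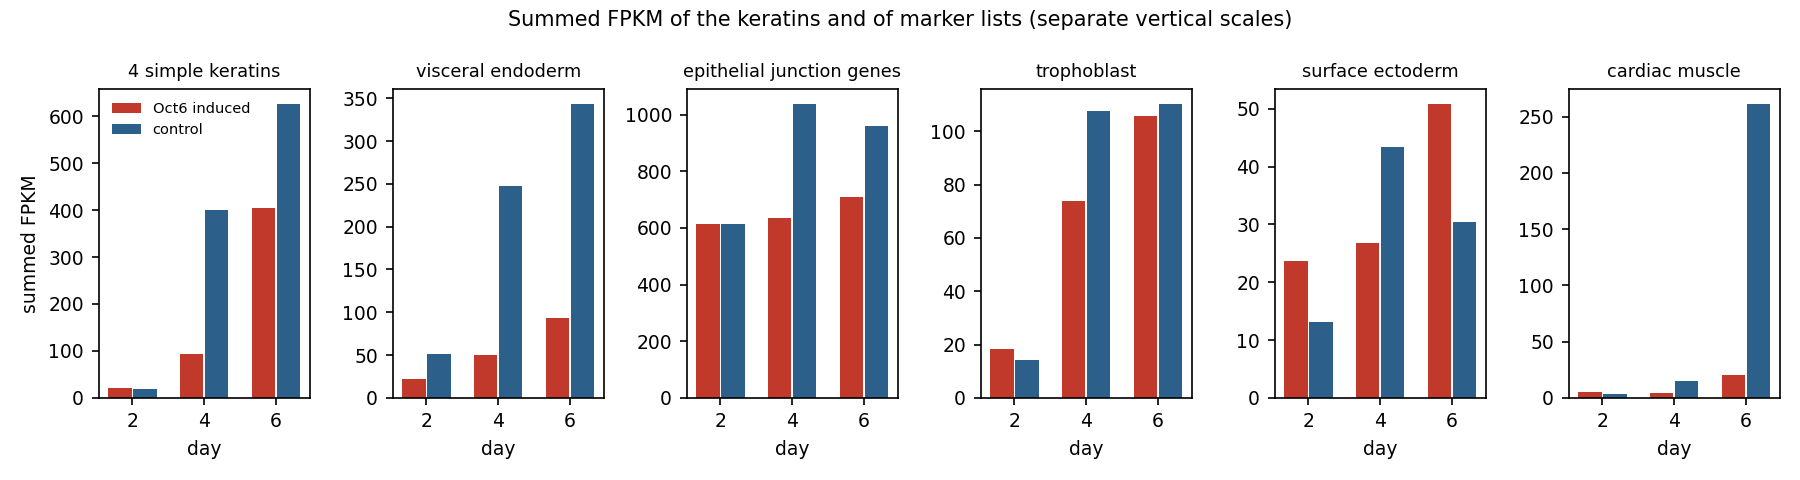
Summed FPKM of the 4 simple keratins and of 5 marker lists by day, 1 library per bar, induced left of control, each panel with its own vertical scale. The keratin sum is 405 FPKM in induced and 627 FPKM in control cells at day 6, and the visceral endoderm sum is 93.0 and 344 FPKM.

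The genes whose profile over the 6 libraries was most like the mean keratin profile were sought among 1263 genes that reached 5 FPKM and varied by at least 2 on the log2 scale. Among them 53 had a Pearson r above 0.95, so a likeness of this size was not rare. The 8 closest were Tmprss2, Hhex, Slc39a8, Dsp, Gprc5c, Lcp1, Cldn6 and Slc2a3, with r between 0.987 and 0.999 over 6 libraries that share arms and days. Tmprss2, a serine protease of epithelia, had 0.199, 2.30 and 11.3 FPKM in the induced libraries by day, against 0.178, 11.3 and 18.3 FPKM in control cells. Hhex, a homeobox factor of anterior endoderm and blood vessels, had 1.98, 3.67 and 10.2 FPKM in induced cells against 1.90, 9.99 and 14.6 FPKM in control cells. Slc39a8, a zinc transporter, had 1.86, 7.93 and 22.1 FPKM in induced cells against 1.52, 22.6 and 36.2 FPKM in control cells. Cldn6, a claudin of embryonic epithelia, had 51.8, 101 and 157 FPKM in induced cells against 49.4, 203 and 229 FPKM in control cells. Slc2a3, a glucose transporter, was the most abundant of them, with 134, 199 and 326 FPKM in induced cells against 114, 455.9 and 503.8 FPKM in control cells. Gprc5c and Lcp1 peaked at 35.5 and 9.29 FPKM in control day 6. Each of these genes was closer between the arms at day 2 than at day 4. They were chosen for likeness to the keratin profile, which has that shape, so this follows from the choice.

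The last question was whether Oct6 occupied chromatin near the keratin genes at day 4. No peak centre lay within 100 kb of any of the 4 start sites, while 56.3% of 12909 expressed coding genes had one (95% Wilson interval 55.5% to 57.2%, counting error only). Within 10 kb the share was 17.7% and the keratins again had 0. The nearest peak to Krt7 was 127 kb upstream, that to Krt8 201 kb downstream, that to Krt18 217 kb downstream and that to Krt19 247 kb upstream. Of expressed coding genes, 62.8%, 75.4%, 77.2% and 80.4% had a nearer peak, and the median distance was 80.3 kb.

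Each of these peaks had another gene closer to it. That nearest to Krt7 (101114333 to 101114465 of chromosome 15, mm9) lay 333 bases from the annotated start of 9430023L20Rik. That nearest to Krt8 (101633972 to 101634104) lay inside the type II keratin cluster, 1264 bases from the start of Krt73, a keratin of the hair follicle sheath that stayed below 0.1 FPKM. That nearest to Krt18 (102075586 to 102075718) lay within Rarg, a retinoic acid receptor gene, and that nearest to Krt19 (100257198 to 100257330 of chromosome 11) within Jup, the plakoglobin gene of desmosomes and adherens junctions. Jup had 39.2, 20.5 and 22.9 FPKM in induced cells against 19.2, 16.3 and 22.5 FPKM in control cells, and Rarg had 25.6, 13.5 and 12.9 FPKM in induced cells against 58.3, 21.6 and 19.2 FPKM in control cells. Both were named after the peaks were seen. The authors' scores of these peaks were 11.4, 11.4, 10.1 and 13.9, where the median of the list was 11.4. Over the 685 kb from Krt80 to Krt18 that hold 23 keratin genes on chromosome 15 there was 1 peak, and over the 1037 kb from Krt222 to Krt42 that hold 27 on chromosome 11 there were 2. The list comes from 1 ChIP library, and a site it does not hold is one that the authors' calling did not report.

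**Figure D5:**
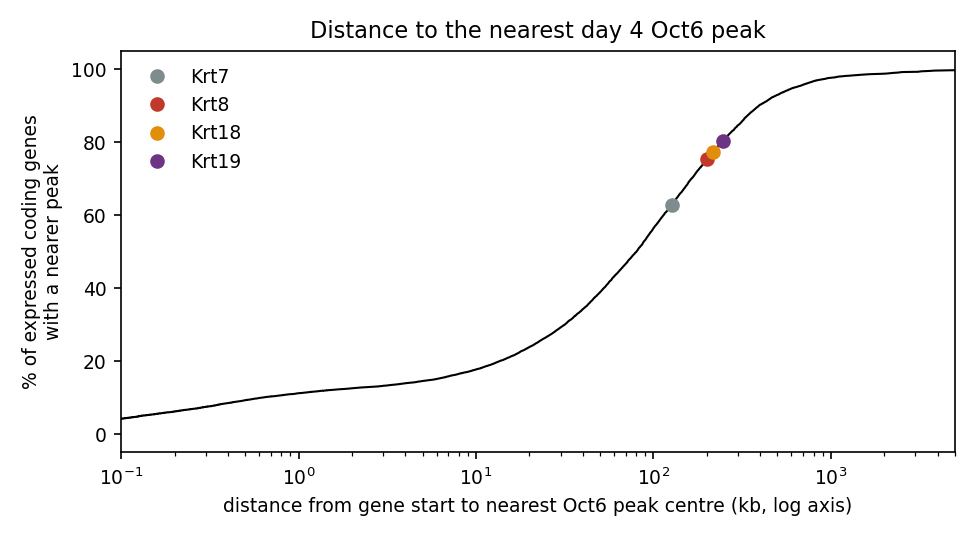
Share of 12909 expressed coding genes with a nearer Oct6 peak (percent, vertical) against distance from the gene start to the nearest peak centre (kb, log axis), with the 4 keratins as points. The keratins lie between 127 and 247 kb, past the median of 80.3 kb.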

How the data were processed

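RNA of 6 libraries and an Oct6 ChIP with input were available as 2 tables. The FPKM table was made by the authors, per the file headers 1 column per library. The tools that the submitters' processing notes list are HOMER, Cuffdiff, Cufflinks 1.3.0 and TopHat 1.4.1, with the build mm9, and the handling of multi-mapping or antisense reads is not stated there. The peak list holds the authors' deposited score for each peak, and all peaks are 133 bases wide. Of its peaks, 7965 ended within the chromosome lengths of NCBIM37, the assembly behind mm9, and 14 lay on other contigs. Gene positions came from GENCODE for that assembly.

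Groups were taken from the labels. FPKM was used as log2(FPKM + 1), so differences of weakly expressed genes are understated, and an exact 0 can be a failed estimate. Relative depth was the most frequent ratio of values below 0.3 FPKM, and fragment numbers are estimates. limma 3.58.1 in R 4.3.3 (eBayes with trend, day as a block) was fitted on genes with 1 FPKM or more in at least 1 library, and tested on simulated data. Copies were sought with BLAST 2.17.0 and shared residues counted with biopython 1.88. Other software was scipy 1.17.1, pandas 2.3.3, numpy 2.4.6 and matplotlib 3.10.9 under Python 3.11.15.

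The members and lists were chosen with earlier results of these data known. Named genes were the 4 members, other keratins reaching 1 FPKM, in each list the 4 genes whose difference was greatest on whichever day, the 8 of most similar profile, Pou3f1 and the nearest peaks. Of these, 1 gene is not reported here. Motifs were chosen after the promoters had been read. Alternatives were another pseudocount, 2 scalings, no filter, no trend, no block, each day left out, other windows and stronger peaks.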

Additional observations from a re-analysis of the deposited data

Results flagged for a closer look

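Krt8 and Krt19 were singled out because induction went in opposite directions on neighbouring days. The log2 difference of Krt8, induced minus control, was 0.63 on day 2 but -1.90 on day 4. That of Krt19 was 1.38 on day 2 but -2.86 on day 4. Krt19 was also singled out for its course in time, since the change from day 2 to day 4 was -0.16 in induced cells and 4.08 in control cells. Each value rests on 1 library per arm and day, and the difference between days or arms was not tested.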

How the results depend on the processing

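All differences of the 4 keratins within a day kept their sign under a pseudocount of 0.1, median ratio scaling and quantile normalisation. Of the 2-fold calls, Krt7 at day 4 passed with the pseudocount of 0.1 (-1.29) and after quantile normalisation (-1.07), and Krt19 at day 2 missed after quantile normalisation (0.99). At a threshold of 1.5-fold, 1 keratin was lower at day 2 and 4 were lower at day 6. Between days, the pseudocount of 0.1 gave 1.27 for Krt7 in induced cells from day 2 to day 4, 1.99 for Krt7 and 4.85 for Krt19 in control cells over the same days, and 1.14 for Krt7 in control cells from day 4 to day 6. Quantile normalisation gave 0.98 for Krt7 in control cells from day 2 to day 4. In limma's fit, with each day left out in turn, the common difference ranged from -1.24 to 0.022 for Krt8 and from -1.97 to 0.15 for Krt19, where the highest values, those without day 4, reversed the sign. It ranged from -0.72 to -0.41 for Krt7 and from -1.40 to -0.62 for Krt18. Over all alternatives limma's adjusted p ran from 0.150 to 0.854 for Krt7, 0.227 to 0.986 for Krt8, 0.167 to 0.869 for Krt18 and 0.202 to 0.940 for Krt19. Without the replicate block, which here is the day, the fitted differences were the same (-0.62 for Krt8) and the adjusted p was 0.854 for Krt7. No peak was near a member at 10, 50 or 100 kb or among peaks of at least median score. The scalings of the gene lists and of all calls were added after seeing the data. The causes of these shifts were not tested. Low counts limit Krt7 at day 2 most.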
